A study of Mus musculus with 2 samples.

Results

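Transcripts of 6 genes were followed across the immune cells of a mouse melanoma: Parp9, Parp10, Parp11, Parp12, Parp14 and Dtx3l. They were chosen by name, as the interferon-related members of the PARP family and the partner of Parp9, and all 6 are among the 27998 genes of the feature table. Their raw transcript counts were summed within cell classes that were gated on marker transcripts. The cells came from B16F10 tumors, a mouse melanoma line grown under the skin of C57BL/6 mice. Live CD45+ cells, that is cells of blood lineage, were sorted at day 14 from 4 pooled tumors per group and profiled with 10x Genomics 3′ chemistry, with 1 library per group. The control hosts carried Usp18f/f, a Usp18 gene flanked by loxP sites. The other hosts carried Usp18f/f LysM-Cre, in which Cre expressed from the Lyz2 locus is meant to delete Usp18 in myeloid cells, so both groups share the floxed alleles. The labels give no sex, and nothing in them tells the pooled mice apart.

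PARP proteins transfer ADP-ribose from NAD onto proteins or nucleic acids. Most interferon-induced members attach a single ADP-ribose unit rather than a chain, and they are known for roles in antiviral defence and in tuning cytokine signals. Dtx3l is a ubiquitin ligase of the deltex family that forms a complex with Parp9. Usp18 is itself an interferon-stimulated gene. Its protein removes ISG15 from other proteins and restrains signalling at the type I interferon receptor.

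With 1 library per group there is no replicate, so no test between the groups was possible and no p-value is given. Levels are given as CPM, the unique transcript counts (UMIs) of a gene scaled to 1e6 UMIs of its class in a library. Folds are ratios of CPM, library labelled LysM-Cre over control. The 95% intervals, exact Poisson for a level and exact conditional binomial for a fold, cover counting error only and not the spread between mice. Read counts at the 3′ end depend on each transcript's end, so levels were compared between classes for 1 gene and not between genes.

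The control library held 7754 barcodes with a median of 2600 UMIs, and the library labelled LysM-Cre held 6063 with a median of 4455. They shared 8 barcode sequences. Gating gave 1584 mononuclear phagocytes in the control library and 2395 in the other, made up of macrophages (529 and 859), monocytes (894 and 1261) and phagocytes with both sets of markers (161 and 275). Usp18 was higher, not lower, in the second library. It stood at 18.2 CPM in control mononuclear phagocytes and at 95.6 CPM in those of the library labelled LysM-Cre, a fold of 5.26 (4.59 to 6.05), although 3′ counts do not show which exons a transcript holds. Lyz2, whose locus carries Cre, stood at 9677 and 16.9 CPM. Neither value shows whether Usp18 was deleted, so the second library is called the library labelled LysM-Cre throughout.

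Of the 6 genes, 3 lie side by side on chromosome 16 in GENCODE M21 (GRCm38, the mm10 build of the labels). Parp14 (ENSMUSG00000034422) spans chr16:35832874-35871544 on the minus strand and Dtx3l (ENSMUSG00000049502) chr16:35926511-35939151 on the minus strand. Parp9 (ENSMUSG00000022906) lies on the plus strand at chr16:35938470-35972605, head to head with Dtx3l and overlapping it by 682 bases. Parp12 (ENSMUSG00000038507) and Parp11 (ENSMUSG00000037997) lie far apart on chromosome 6, at chr6:39086410-39118349 on the minus strand and chr6:127446840-127494261 on the plus strand. Parp10 (ENSMUSG00000063268) lies at chr15:76231174-76243441 on the minus strand.

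RefSeq promoter windows (GRCm38.p6) were at hand for Parp11, Parp12 and Dtx3l. They were searched over the 250 bases before each start, on both strands, for the interferon-stimulated response element core (GAAA, any 2 bases, GAAA) and the gamma-activated site TTCNNNGAA. The 150 bases before a start of Parp11 and before the start of Parp12 are shown because both genes differed between the libraries in monocytes while their upstream letters differ. Capitals mark the response element match, on the opposite strand to the letters searched.
Parp11, chr6:127446690-127446839, plus strand: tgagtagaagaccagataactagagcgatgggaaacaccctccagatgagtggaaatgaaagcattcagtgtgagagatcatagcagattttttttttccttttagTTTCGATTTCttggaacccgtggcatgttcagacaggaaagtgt
Parp12, chr6:39118350-39118499, minus strand: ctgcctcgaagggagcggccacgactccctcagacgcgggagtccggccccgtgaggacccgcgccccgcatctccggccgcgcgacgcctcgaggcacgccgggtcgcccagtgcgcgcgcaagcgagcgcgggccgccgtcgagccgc
The Parp11 match lies 44 to 35 bases before the start, and a gamma-activated site match at 37 to 29 bases overlaps it by 3 bases. The Parp12 stretch is 79.3% G and C, against 41.3% for the Parp11 stretch shown and 64% for that of a second Parp11 start. The Parp12 window held neither motif. Neither did the window of Dtx3l or the second Parp11 window. Over all 32817 promoter windows searched, 2.97% held the response element core and 7.01% the gamma-activated site. Of the 22 genes of the interferon-stimulated list with a window, 8 held the response element core. A match is a description of the letters and not a measured binding site.

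All 6 genes had higher levels in the mononuclear phagocytes of the library labelled LysM-Cre, by 1.41-fold to 2.23-fold. Parp12, a zinc-finger mono-ADP-ribosyltransferase that limits the replication of some viruses, showed the largest fold of the 6. It stood at 37.5 CPM (479 UMIs) in control cells and at 83.6 CPM (1708 UMIs) in the others, a fold of 2.23 (2.01 to 2.47). Parp14, a macrodomain-bearing mono-ADP-ribosyltransferase studied for its part in macrophage cytokine signalling, stood at 105.8 CPM (95% interval 100.3 to 111.6) and 214.8 CPM (208.5 to 221.3), a fold of 2.03 (1.91 to 2.16). The counting intervals of the 2 libraries did not overlap for either gene.

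The partners Parp9 and Dtx3l differed less. Parp9, which has little catalytic activity of its own, stood at 40.8 CPM (37.4 to 44.5) and 57.5 CPM (54.3 to 60.9), a fold of 1.41 (1.27 to 1.56). Dtx3l stood at 50.7 CPM (46.9 to 54.8) and 84.8 CPM (80.8 to 88.9), a fold of 1.67 (1.53 to 1.83). Parp10, a mono-ADP-ribosyltransferase with ubiquitin-interaction motifs, went from 19.2 to 30.8 CPM, and Parp11, another mono-ADP-ribosyltransferase, from 16.2 to 25.2 CPM. Their folds were 1.60 (1.38 to 1.86) and 1.56 (1.32 to 1.84).

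The 6 genes were set beside all genes of these cells by a count past 2-fold. On the scale used for this count, the log2 ratio of (CPM + 5), Parp12 alone of the 6 passed 2-fold, with Parp14 just under it at 0.99. Of 11753 genes with at least 20 UMIs, 0.936% were at least 2-fold higher and 0.111% at least 2-fold lower. By any amount 45.3% were higher, as were all 6 genes. The median log2 ratio of the 6 genes was 0.63, against -0.02 over all genes tested.

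For each of the 6 genes the fold was larger in monocytes than in macrophages, a difference between classes that was not tested. In monocytes Parp14 stood at 110.8 CPM in the control and 303.1 CPM in the other, a fold of 2.74 (2.5 to 3.0). Parp12 went from 34.0 to 107.3 CPM, a fold of 3.16 (2.70 to 3.72). Parp10 went from 18.4 to 44.5 CPM, a fold of 2.42 (1.93 to 3.05). These 3 genes passed 2-fold on the log2 scale, where the background in monocytes was 1.81% of 10368 genes higher and 0.26% lower. Dtx3l reached 113.4 CPM from 55.8 CPM, a fold of 2.03 (1.78 to 2.32). Parp11 and Parp9 had folds of 1.87 (1.45 to 2.43) and 1.76 (1.5 to 2.08). The counting intervals of the libraries stayed apart for all 6 genes in monocytes. The phagocytes with both marker sets had folds of 2.97 for Parp12, 2.43 for Parp14, 2.21 for Parp11, 2.17 for Dtx3l, 1.87 for Parp10 and 1.38 for Parp9.

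In macrophages none of the 6 genes passed 2-fold, where the background was 0.484% of 10955 genes higher and 0.155% lower. Parp14 stood at 101.5 CPM in the control and 146.4 CPM in the other, a fold of 1.44 (1.31 to 1.59). Parp12 went from 39.3 to 57.0 CPM, a fold of 1.45 (1.24 to 1.70), and Dtx3l from 45.2 to 58.8 CPM, a fold of 1.30 (1.12 to 1.51). Parp9 stood at 42.1 and 49.5 CPM, where the counting intervals of the levels overlapped and the fold was 1.18 (1.01 to 1.38). Parp10 stood at 19.0 and 18.8 CPM, a fold of 0.99 (0.78 to 1.26), and the fold of Parp11 was 1.21 (0.95 to 1.55). The plot of levels by class shows the monocytes of the library labelled LysM-Cre apart from its macrophages, with intervals that do not overlap, for all 6 genes.

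**Figure D1:**
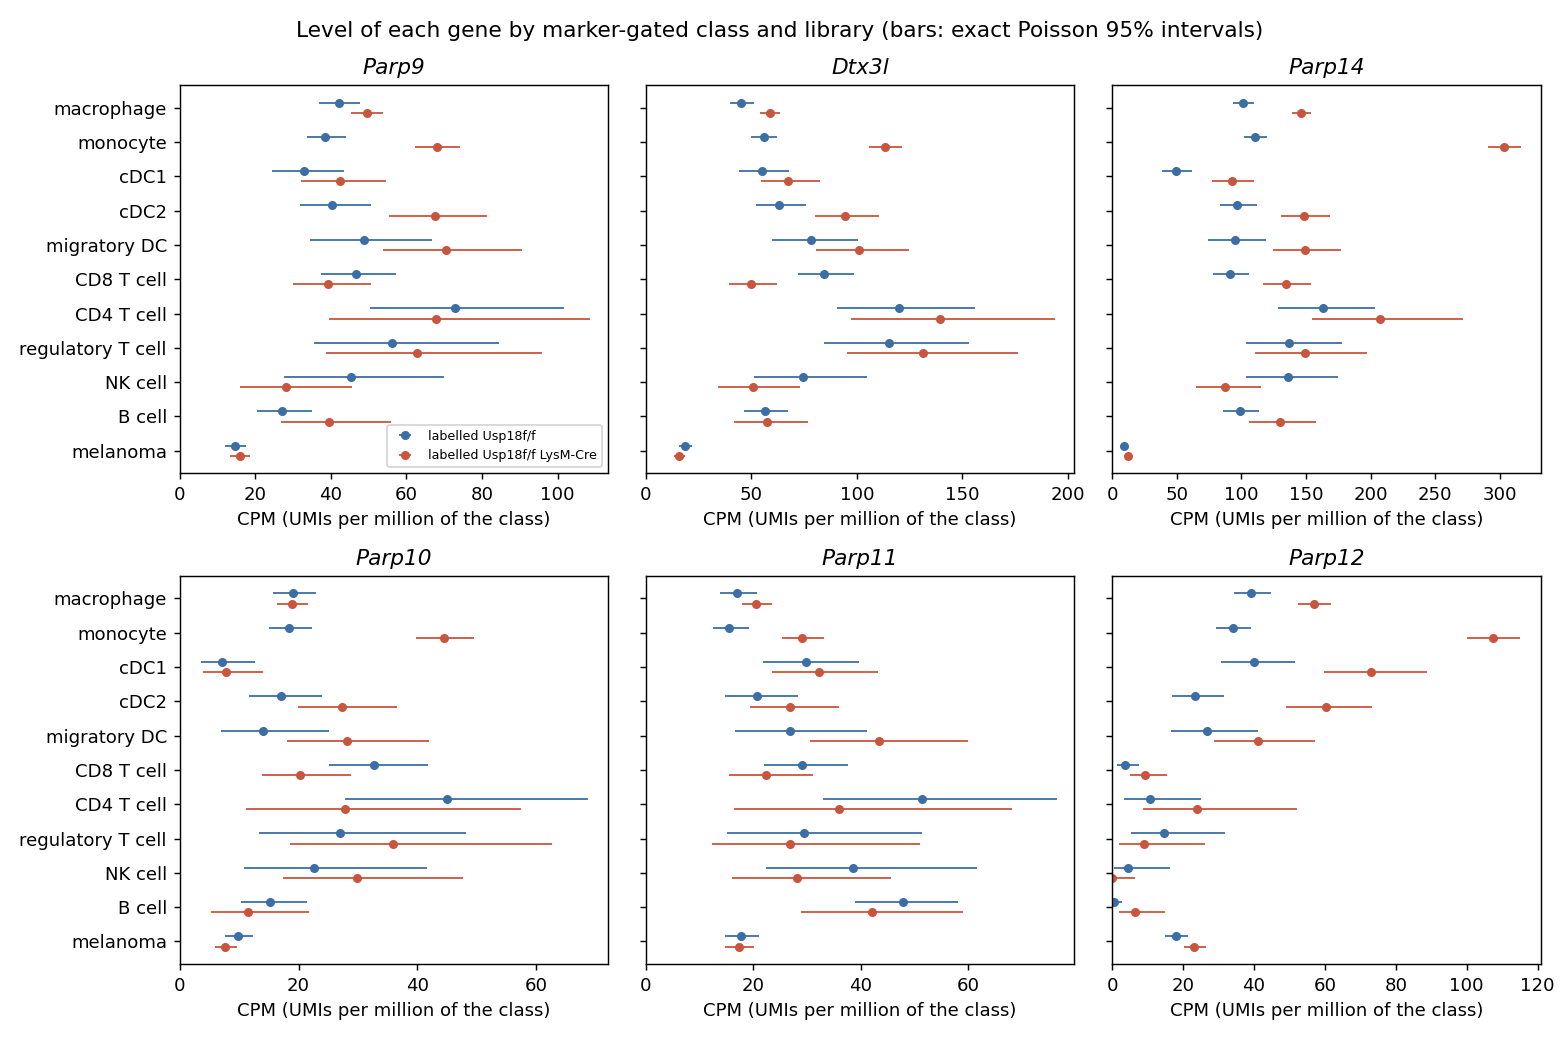
Level of each of the 6 genes (x axis, CPM) by marker-gated class (y axis) in the control library (blue) and the library labelled LysM-Cre (red). Points are class sums and bars exact Poisson 95% intervals. The monocytes stand apart between the libraries in every panel, and Parp12 is low in B, NK and CD8 T cells in both.

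Markers of other cells moved with these comparisons. In the monocyte class, the T-cell markers Cd3d, Cd3e and Cd3g summed to 3.75 CPM in the control and 19.7 CPM in the other, melanoma markers to 23.4 and 41.2 CPM, endothelial markers to 12.9 and 37.3 CPM and plasmacytoid dendritic cell markers to 1.79 and 15 CPM. Neutrophil markers went the other way, from 234.8 to 94.6 CPM. Among the 1086 control and 1535 other phagocytes with no UMI of a T-cell, NK-cell, B-cell or melanoma marker, the folds were as large or larger, at 2.66 for Parp12, 2.34 for Parp14, 1.96 for Dtx3l and for Parp10, and 1.56 for Parp9 and for Parp11. Ly6c2, 1 of the 6 monocyte markers of the gate, stood at 340 CPM in control monocytes and 1643 CPM in the others. With Ly6c2 left out of the gate, the monocyte folds were 2.61 for Parp14 and 2.82 for Parp12. Both of these alternatives were chosen after the data were seen. When clusters of cells took the place of the gate, monocyte folds were smaller, at 2.08 for Parp14, 2.29 for Parp12, 1.53 for Parp10, 1.46 for Dtx3l and 1.34 for Parp9 and for Parp11.

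**Figure D2:**
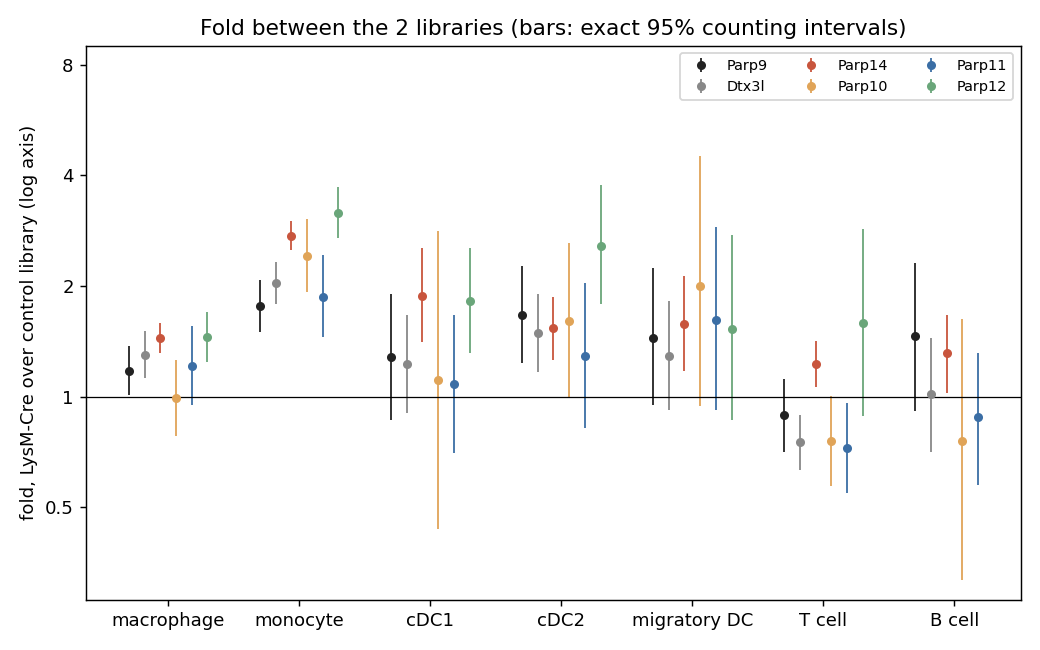
Fold between the libraries (y axis, LysM-Cre over control CPM, log axis) for the 6 genes in 7 classes. Points are folds, bars exact 95% counting intervals, and genes with under 5 UMIs in a library are left out. All 6 monocyte intervals lie above 1, and in T cells the points of Dtx3l and Parp11 lie below 1 with intervals that exclude it.

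Both libraries hold cells of both sexes in unequal numbers, as transcripts of Xist and of 4 Y-linked genes show. In control mononuclear phagocytes 370 cells had Xist and no Y-linked UMI and 774 had a Y-linked UMI and no Xist, against 1600 and 328 in the library labelled LysM-Cre. The sexes are therefore unequal between the libraries, and cells of each sex come from different mice of a pool. Among mononuclear phagocytes with Xist, folds were 1.35 for Parp9, 1.62 for Dtx3l, 1.92 for Parp14, 1.95 for Parp10, 2.06 for Parp11 and 2.44 for Parp12. Among those with Y-linked UMIs they were nearer 1, at 1.32 (1.17 to 1.49) for Parp14, 1.31 (1.07 to 1.58) for Parp12, 1.11 (0.92 to 1.32) for Dtx3l, 1.06 for Parp9, 0.95 for Parp11 and 0.90 for Parp10.

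Within monocytes alone the folds of both sexes lay above 1 for all 6 genes. Parp14 had a fold of 2.0 (1.71 to 2.35) in cells with Xist and 2.26 (1.82 to 2.80) in cells with Y-linked UMIs. Dtx3l had folds of 1.80 and 2.0, Parp12 of 2.99 and 2.29, Parp11 of 2.64 and 2.32 and Parp10 of 3.65 and 1.96. Parp9 had folds of 1.28 (0.97 to 1.71) and 1.52 (0.97 to 2.29), both with an interval that spans 1. Monocytes made up fewer of the cells with Y-linked UMIs in the library labelled LysM-Cre, 90 of 328, than in the control library, 425 of 774.

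**Figure D3:**
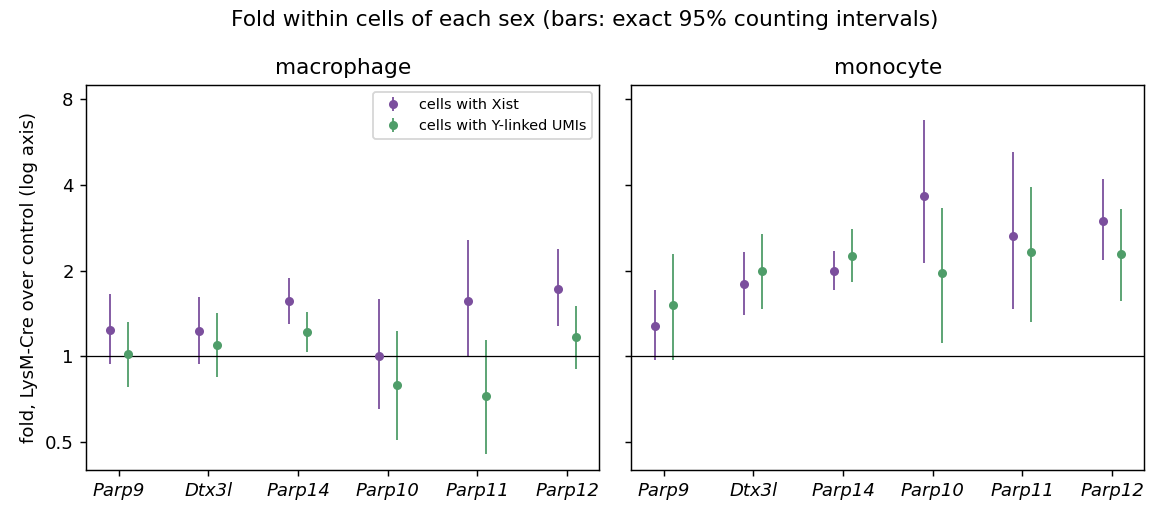
Fold between the libraries (y axis, log axis) for the 6 genes (x axis) in macrophages and monocytes, within cells with Xist (purple) and cells with Y-linked UMIs (green). Points are folds and bars exact 95% counting intervals. In monocytes all 12 points lie above 1, and in macrophages the points of cells with Y-linked UMIs lie between 0.72 and 1.22.

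In monocytes the interferon-stimulated genes were higher like the 6 genes, while the rest of their own biochemical families went in both directions. The interferon-stimulated list holds 28 genes that contain none of the 6, and 27 are in the feature table. In monocytes 26 of these 27 were at least 2-fold higher, with a median log2 ratio of 2.09. Isg15, a ubiquitin-like protein, went from 57.7 to 1044 CPM and Ifit3, an antiviral RNA-response protein, from 11.8 to 313 CPM. The smallest log2 ratio of the list was 0.98, for Eif2ak2, so the median of the 6 genes, 1.02, lay near the lower end of the list. Over all genes in monocytes the median was -0.05.

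Of the other ADP-ribosyltransferases, 10 of 11 had at least 20 UMIs in monocytes and none passed 2-fold in either direction, with a median log2 ratio of 0.09. Zc3hav1, the antiviral zinc-finger member, went from 87.0 to 118 CPM, Tiparp, an aryl hydrocarbon receptor target, from 214 to 231 CPM, and Parp1, the DNA-damage sensor, from 50.7 to 41.0 CPM. None of the 3 measured deltex genes beside Dtx3l, of the 6 measured genes that remove ADP-ribose or of the 9 measured genes of NAD supply passed 2-fold on the log2 scale of (CPM + 5). As a plain ratio of CPM, the deltex gene Dtx4 went from 12.9 to 5.95 CPM, a fold of 0.46 (0.31 to 0.68), and Macrod2, which removes ADP-ribose, from 12 to 33 UMIs, a fold of 2.08 (1.05 to 4.42). Nampt, the rate-limiting enzyme of NAD salvage, stood at 176 and 249 CPM, a fold of 1.42.

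Of 13 genes of interferon signalling, 10 were higher and 3 lower by any amount in monocytes, with a median log2 ratio of 0.17. Over all 10368 genes tested there, 42.2% were higher by any amount. The transcription factor Stat2 had a fold of 2.98 and the feedback inhibitor Socs1 a fold of 3.85, while the interferon gamma receptor chain Ifngr1 had a fold of 0.62 (0.58 to 0.66) and the kinase Jak1 0.95 (0.88 to 1.02). Of 13 genes associated with interferon gamma, 5 passed 2-fold higher, and their median log2 ratio was 0.95. In macrophages 12 of 27 interferon-stimulated genes passed 2-fold higher, with a median of 0.85. Here too the median of the 6 genes, 0.28, lay below that of this list and above that of the other ADP-ribosyltransferases, -0.10. Single genes of the latter overlapped the 6. Parp3, 1 of them, went from 11.9 to 24.1 CPM in macrophages, a fold of 2.03 (1.55 to 2.69). Its log2 ratio of 0.79 exceeded the highest of the 6 genes, 0.51.

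**Figure D4:**
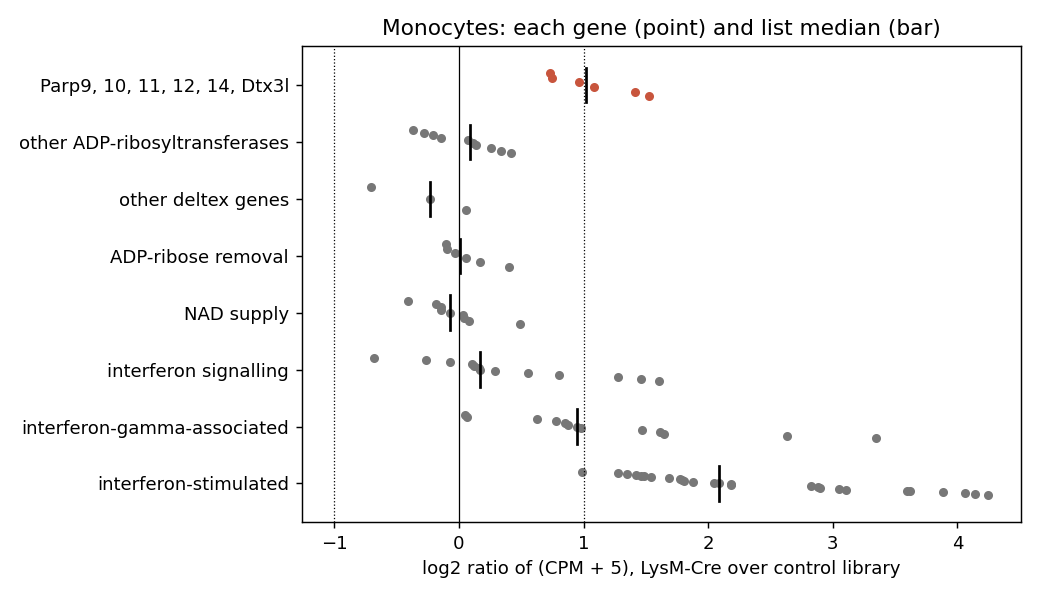
Log2 ratio of (CPM + 5) in monocytes, library labelled LysM-Cre over control (x axis), for each gene with at least 20 UMIs in 8 lists (y axis). Points are genes, black bars list medians and dotted lines 2-fold. The 6 genes (red) lie between 0.73 and 1.53, with the other ADP-ribosyltransferases between -0.37 and 0.42.

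Individual cells were then grouped by their own interferon-stimulated transcripts, a description added after the data were seen. Each cell was thinned to 1000 UMIs and placed by its UMIs of the interferon-stimulated list into 4 ranges, 0, 1 to 2, 3 to 5, or 6 or more. Of control monocytes 48.5% had 0 and 3.08% had 6 or more (27 cells). In the library labelled LysM-Cre 12.6% had 0 and 35.5% had 6 or more (427 cells). The ranges are bands of 1 score and not cell types.

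Each of the 6 genes was higher in monocytes with 6 or more list UMIs than in those with 0, in both libraries. Parp14 went through 62.4, 126.1, 172.2 and 509.7 CPM over the 4 ranges in control monocytes and through 78.4, 143.7, 228.6 and 566.3 CPM in the others. Its ratio of the highest to the lowest range was 8.16 (6.18 to 10.7) and 7.23 (5.72 to 9.26). For Dtx3l this ratio was 6.07 and 5.32, and for Parp9 4.89 and 2.89.

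The libraries were also set side by side within each range, as a description. The ranges come from a score that differs between the libraries and goes up with the 6 genes, so smaller folds within a range follow from the grouping itself. Nor is the highest range matched, since its monocytes had a mean of 10.2 list UMIs in the control library and 17.8 in the other. Of the 24 folds for 6 genes in 4 ranges, 20 had a counting interval that spans 1 in monocytes and 20 did in macrophages. Parp14 had a fold of 1.11 (0.89 to 1.41) in monocytes with 6 or more list UMIs, and Dtx3l 0.87 (0.63 to 1.24). Parp12 had 113.3 CPM in control monocytes of 6 or more list UMIs and 213.7 CPM in the others, a fold of 1.89 (1.18 to 3.21), and 1.43 (1.03 to 1.99) in the range of 1 to 2. The other intervals that exclude 1 in monocytes were those of Parp10 in the range of 0, at 2.09, and Parp14 in the range of 3 to 5, at 1.33. In macrophages they were those of Dtx3l at 1 to 2 (1.40), Parp14 at 6 or more (1.38), and Parp9 and Parp10 at 3 to 5, which were lower in the library labelled LysM-Cre, with folds of 0.61 and 0.47. The control groups of 6 or more hold few cells, 27 monocytes and 21 macrophages, so an interval that spans 1 does not show equal levels.

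**Figure D5:**
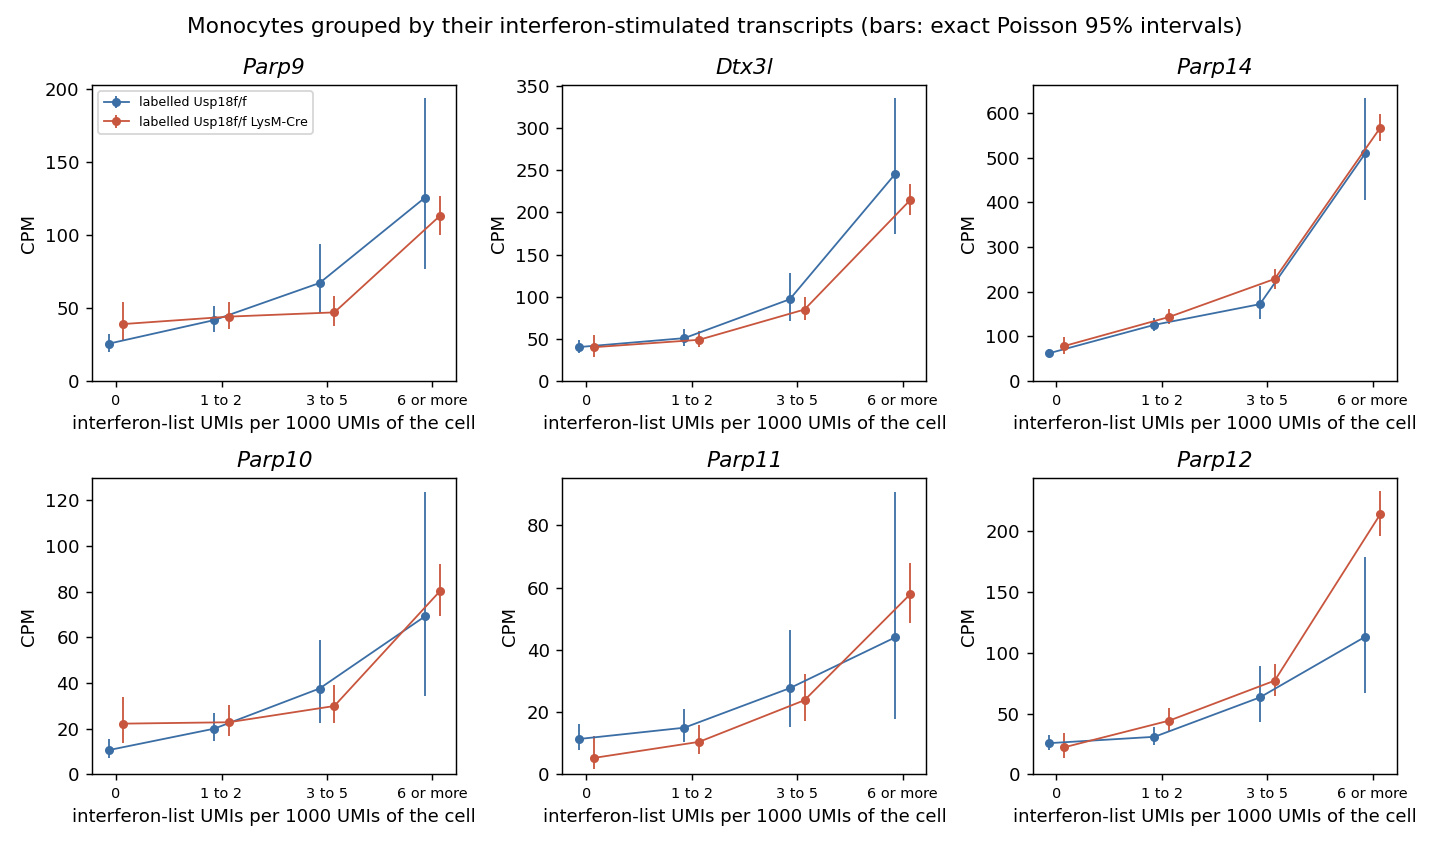
Level of each of the 6 genes (y axis, CPM) in monocytes grouped by UMIs of the interferon-stimulated list per 1000 UMIs of the cell (x axis), in the control library (blue) and the library labelled LysM-Cre (red). Points are sums over cells, bars exact Poisson 95% intervals. Levels in the highest range exceed those at 0 in all panels, and the intervals of the libraries stay apart there for Parp12, in a range whose mean score differs between them (10.2 and 17.8).

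At equal depth the difference also appeared in the share of phagocytes with a UMI. With each cell thinned to 1000 UMIs, 1555 control cells and 2247 of the other library remained, and 29 and 148 shallower cells were left out. A Parp14 UMI was found in 9.07% of control cells (7.69% to 10.6%, Clopper-Pearson) and 20.9% of the others (19.2% to 22.6%), a difference of 11.8 points. Melanoma cells, where Parp14 was low, had shares of 1.45% and 1.25%. A Parp12 UMI was found in 3.34% and 8.01% of phagocytes, against 0.0773% and 0.739% of B cells, whose median depths were 1504 and 1774.5 UMIs. For Parp9 the shares were 3.47% and 5.21%, for Dtx3l 5.21% and 10.2%, and for Parp10 1.74% and 3.78%. The Parp11 share went from 1.80% to 2.63%, and the interval of that difference, -0.11 to 1.76 points, spans 0. Without thinning, the differences ran from 4.67 points for Parp11 to 17.2 points for Parp14.

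Dendritic cells showed the same direction with fewer cells. In cDC2, the conventional dendritic cells that prime CD4 T cells, Parp12 went from 23.4 to 60.2 CPM, a fold of 2.57 (1.79 to 3.76), and Parp9 from 40.4 to 67.5 CPM, a fold of 1.67 (1.24 to 2.27). Parp14 and Dtx3l had folds of 1.53 (1.26 to 1.87) and 1.49 (1.17 to 1.91) there. Parp12 alone passed 2-fold, where 1.68% of 8926 genes were higher and 0.459% lower. In cDC1, the cross-presenting dendritic cells, Parp14 went from 49.2 to 92.5 CPM and Parp12 from 40.1 to 73.1 CPM, with folds of 1.88 (1.41 to 2.53) and 1.82 (1.32 to 2.54), while the intervals of the other 4 genes spanned 1. Migratory dendritic cells had 94.8 and 149 CPM of Parp14, a fold of 1.57 (1.17 to 2.12), the only 1 of the 6 with an interval above 1 there. By any amount 47.6% of genes in cDC1, 50.6% in cDC2 and 54.6% in migratory dendritic cells were higher, as were all 6 genes. In cDC1 the log2 ratio of (CPM + 5) for Parp10, 0.09, turned to -0.22 at a mitochondrial limit of 5%. That of Parp11, 0.10, turned to -0.03 with clusters in place of the gate.

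T cells differed from phagocytes in direction for some of the genes. Dtx3l stood at 100.5 CPM in control T cells and 75.4 CPM in the others, a fold of 0.75 (0.63 to 0.89), and Parp11 at 38.0 and 27.6 CPM, a fold of 0.73 (0.55 to 0.96). Parp14 went the other way, from 108 to 133 CPM, a fold of 1.23 (1.06 to 1.41). Parp9, Parp10 and Parp12 had folds of 0.89, 0.76 and 1.58 with intervals that reach 1 or span it. None passed 2-fold, where 0.584% of 10103 genes were higher and 0.178% lower. By any amount 41.0% of these genes were higher, as were 2 of the 6. Lower values were not particular to Dtx3l and Parp11. All 4 other deltex genes were lower, with folds of 0.64 (0.50 to 0.82) for Dtx3 and 0.56 (0.37 to 0.82) for Dtx1. The intervals of Dtx2 and Dtx4 spanned 1. Of the 11 other ADP-ribosyltransferases 3 were higher and 8 lower. In T cells, macrophage markers summed to 21.2 CPM in the control and 55.3 CPM in the other, and their part in the T-cell values was not tested.

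Dtx3l stood at 84.4 and 49.8 CPM in CD8 T cells, a fold of 0.59 (0.44 to 0.78). In the T cells outside the CD8, CD4 and regulatory gates, 333 in the control library and 244 in the other, it stood at 118.8 and 80.5 CPM, a fold of 0.68 (0.49 to 0.93). CD4 T cells had 120 and 139 CPM and regulatory T cells 115 and 131 CPM, with overlapping intervals. Among CD4 T cells with Xist the fold turned to 0.68 (0.34 to 1.32), and among regulatory T cells at a mitochondrial limit of 5% it was 0.99 (0.59 to 1.66). The differences between these subsets were not tested. Parp14 in CD8 T cells went from 91.2 to 134 CPM, a fold of 1.47 (1.20 to 1.81), so Dtx3l and Parp14 differed in opposite directions there. In T cells with Y-linked UMIs, only 64 in the library labelled LysM-Cre, Dtx3l had a fold of 1.03 (0.65 to 1.57), and in those with Xist 0.69 (0.53 to 0.91). CD8 T cells can also express Ly6c2. With that marker out of the gate, the T-cell fold was 0.78 (0.67 to 0.92) for Dtx3l, 0.79 (0.60 to 1.02) for Parp11 and 2.05 (1.22 to 3.51) for Parp12. That was the highest of 9 alternatives for Parp12, which rests on 23 and 29 UMIs in T cells. Its log2 ratio of (CPM + 5), 0.40, ran from -1.06 in cells with Y-linked UMIs to 0.67 without Ly6c2, and 2 alternatives changed its sign.

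The other classes gave single differences. Parp14 in NK cells stood at 136 and 87.6 CPM, a fold of 0.65 (0.44 to 0.96), and in B cells at 99.0 and 129.9 CPM, a fold of 1.31 (1.03 to 1.67). Parp12 in melanoma cells that passed the sort stood at 17.9 and 23.2 CPM, a fold of 1.30 (1.04 to 1.62). The intervals of the other genes with at least 5 UMIs in each library spanned 1 in these 3 classes. The melanoma classes were unlike in depth, with 140 control cells at a median of 50320.5 UMIs and 329 others at 9177. The part of depth or of other cells' RNA in the melanoma fold of Parp12 was not tested.

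Across classes, the genes differed in where they were highest. In the control library CD4 T cells had the highest level of Parp9 (72.8 CPM), Dtx3l (120 CPM), Parp14 (163 CPM), Parp10 (45.0 CPM) and Parp11 (51.4 CPM), but with intervals that overlap the next class each time. Melanoma cells had the lowest Parp9, Dtx3l and Parp14, at 14.6, 18.6 and 9.02 CPM, each below the next class beyond counting error. Parp11 was 47.9 CPM (39.0 to 58.2) in B cells and 15.5 CPM (12.5 to 19.2) in monocytes of the control library, the lowest value there. The monocyte interval overlaps those of the other phagocytes, melanoma cells, cDC2, migratory dendritic cells and regulatory T cells.

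Parp12 was distributed differently. In the control library it ran from 23.4 to 44.6 CPM in phagocytes and conventional and migratory dendritic cells, and melanoma cells had 17.9 CPM. B cells had 0.474 CPM from 1 UMI, and NK cells 4.52 CPM from 2 UMIs. Regulatory T cells had 14.7 CPM (5.39 to 32.0) from 6 UMIs, an interval that overlaps that of cDC2. In the library labelled LysM-Cre B cells had 6.37 CPM from 5 UMIs, and NK cells had 0 UMIs, with an upper Poisson limit of 6.46 CPM. CD4 T cells of that library had 23.9 CPM (8.77 to 52.0) from 6 UMIs, an interval that overlaps that of migratory dendritic cells. The phagocytes with both marker sets led there at 133 CPM, above monocytes beyond counting error. In that library monocytes also led for Parp14, at 303 CPM.

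The level patterns were compared over 24 sums, 12 classes in 2 libraries, among 11157 genes, as Pearson correlations of log2(CPM + 5). The points share library, depth and class, so they are given as a description. Dtx3l was the gene most like Parp9 (0.93), followed by Parp14 (0.89) and Nfkbiz (0.86). Genes most like Dtx3l included Parp9 (0.93) and Parp14 (0.87), and those most like Parp14 were Casp1 (0.94), Slfn2 (0.93) and Srgn (0.90). Parp10 was most like Gbp7 (0.85), S100a10 (0.84) and Ifi47 (0.83), and Parp11 most like Wipf2, Smchd1 and Kdm5c (each 0.79). Parp12 was most like Npc2 (0.89), Sdc3 (0.87) and Atp6v0e (0.87), and its correlation with the other 5 genes ran from -0.27 to 0.33.

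The neighbours of Parp14, Dtx3l and Parp9 on chromosome 16 were not higher beyond counting error. Within 200 kb of the 3 genes lie 11 other genes, of which 6 had at least 20 UMIs in mononuclear phagocytes. Their folds ran from 0.75 (0.63 to 0.90) for Dirc2 to 1.11 (0.94 to 1.31) for Ccdc58, and Kpna1, the gene next to Parp9, stood at 40.1 and 38.0 CPM. Fam162a stood at 135.4 and 135.3 CPM. Gm15564, an antisense gene that overlaps Parp9, had 0 UMIs in these cells. The overlap of Dtx3l and Parp9 lies at their 5′ ends, away from the 3′ ends that this chemistry reads.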

How the data were processed

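The authors deposited whole-number UMI counts that were not normalized, a matrix of genes by called barcodes for each library, and used Cell Ranger 3.0.1 and mm10, per the submitters' processing notes. Kept barcodes had 200 or more genes and no more than 10% of UMIs from mitochondrial genes. Scrublet (scanpy 1.11.5) scored doublets, of which the top 0.8% per 1000 barcodes of a library were dropped (440 and 278).

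A barcode joined a class with at least 2 marker UMIs from 2 distinct markers, where the class's marker share, over its usual share, was at least 2 times that of the next class. This gated 5311 of 6646 and 4500 of 5451 kept barcodes, 597 and 566 others failed only the margin, and classes needed 50 cells per library. Neutrophils and plasmacytoid dendritic cells did not reach it and were not compared. Names rest on transcripts alone. UMIs were summed per class and scaled to CPM (Python 3.11.15, scipy 1.17.1). Counts past 2-fold and list medians use log2 of (CPM + 5) and genes whose UMIs over the libraries came to 20 or more. The calculation was tested on simulated data.

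The members and lists were chosen with earlier results of these data known. Genes named are the 6 members, genes of the lists and markers, Usp18 and Lyz2, and the 3 genes most correlated with each member. A gene that this rule names is not reported here. The neighbours on chromosome 16 and the ranges of interferon-stimulated UMIs were added after the values were seen. Alternatives were another pseudocount, mitochondrial limit, gate, clusters, free-RNA correction, thinning and cells of each sex.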

Additional observations from a re-analysis of the deposited data

Results flagged for a closer look

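Between the libraries Dtx3l had a fold of 1.67 in mononuclear phagocytes and of 0.75 in T cells, and both counting intervals exclude 1. Parp11 showed the same opposition, with folds of 1.56 and 0.726. These differences between cell types were not tested, since each group is 1 library, and the Parp11 interval in T cells reached 1.02 once Ly6c2 was left out of the gate. Among cells with Y-linked UMIs the Dtx3l folds were 1.11 (0.92 to 1.32) in phagocytes and 1.03 (0.65 to 1.57) in T cells, and the Parp11 fold in phagocytes was 0.95 (0.68 to 1.33), so the opposition was not seen there.

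Barcodes that joined no class, 1335 in the control library and 951 in the other, were outside the comparisons. Parp14 stood at 111 and 171 CPM in them, a fold of 1.54, and Parp12 at 21.3 and 54.5 CPM, a fold of 2.56.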

How the results depend on the processing

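No paired analysis was possible because each group is 1 library and the result comes from no test. Values are log2 ratios of (CPM + 5) unless stated. In mononuclear phagocytes, cells with Y-linked UMIs gave 0.070 for Parp9, 0.13 for Dtx3l, 0.39 for Parp14, 0.34 for Parp12, -0.11 for Parp10 and -0.054 for Parp11, so the last 2 changed sign; cells with Xist gave 0.80 for Parp10 and 0.83 for Parp11. A mitochondrial limit of 5% gave 1.08 for Parp14 and 1.30 for Parp12. Phagocytes with no lymphocyte or melanoma marker gave 0.90 for Dtx3l, 1.19 for Parp14, 0.82 for Parp10 and 1.30 for Parp12. In monocytes, clusters in place of the gate gave 0.38 for Parp9, 0.51 for Dtx3l, 1.02 for Parp14, 0.51 for Parp10, 0.33 for Parp11 and 1.09 for Parp12; cells with Xist gave 0.33 for Parp9, 0.97 for Parp14 and 1.53 for Parp10; cells with Y-linked UMIs gave 1.14 for Parp14 and 1.09 for Parp12. In macrophages, cells with Y-linked UMIs gave 0.12 for Dtx3l, 0.27 for Parp14, -0.34 for Parp11, a change of sign, and 0.20 for Parp12; cells with Xist gave 0.72 for Parp12; the limit of 5% gave 0.68 for Parp14 and 0.80 for Parp12; clusters gave 0.35 for Parp14; phagocytes with no such marker gave 0.52 for Parp9 and 0.65 for Parp14. Parp10 in macrophages, -0.01, ran from -0.25 to 0.25 over 10 alternatives. For shares, thinning to 2000 UMIs gave differences of 3.40 points for Parp9, 7.48 for Dtx3l, 16.5 for Parp14 and 9.04 for Parp12, and no thinning 8.24, 12.5, 17.2, 6.66 for Parp10, 4.67 for Parp11 and 14.9 for Parp12. The cause was not tested. The pseudocount of 1 CPM, doublets kept, a gate of 3 UMIs, the gate without Ly6c2 and 5% of free RNA subtracted moved none of the 18 phagocyte, monocyte and macrophage ratios beyond its counting interval. With 1 pool per group, mouse, sex, tumor and library cannot be told apart from genotype.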
